A study of Mus musculus with 2 samples.

Results

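The interferon regulatory factors (IRFs) analysed here are the 8 genes Irf1, Irf2, Irf3, Irf4, Irf5, Irf7, Irf8 and Irf9, which were taken by symbol from the 24421 genes of the deposited Th1 tables, and all 8 were found in both. IRFs share an N-terminal DNA-binding domain with a row of conserved tryptophans and bind GAAA repeats in the promoters of interferon genes and of genes that interferons induce. Interferon gamma (IFNγ), the signature cytokine of Th1 cells, acts on target promoters through the gamma-activated site (GAS), and Irf1 and Irf8 are among its textbook targets. Irf4 is instead induced by the T cell receptor (TcR), while Irf3, Irf5 and Irf7 act downstream of nucleic acid sensors and Irf9 binds DNA within the interferon-activated complex ISGF3.

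RNA was sequenced from Th1 cells of C57BL/6J mice carrying either intact Chi3l1 (Chi3l1+/+, called WT) or the disrupted gene (Chi3l1-/-, called Chi3l1 KO), with 1 sample of each (n = 1). The mice were 6 to 8 weeks old. Naïve CD4 T cells were stimulated by immobilized antibodies to CD3 and CD28 in the presence of IL-12, IL-2 and an IL-4-blocking antibody, conditions that skew the cells to Th1, and cultures were kept for 3 or 5 days. The naïve cells were purified before culture, and no cell type-specific deletion was used, so the cells were without Chi3l1 throughout their development by the labels. The sources used here give neither the culture day of these samples nor the number of mice pooled. No difference between the genotypes has a replicate check, so no test was made and no p-value is given.

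The deposited value of a gene is log2 of a normalized count plus 1, and the values trace back to 70638495 reads in the library labelled WT Th1 and 62991545 reads in the library labelled Chi3l1 KO Th1. The targeted gene, listed as Chil1, went against the labels, with about 1 read in the library labelled WT Th1 and 103 reads in the library labelled Chi3l1 KO Th1. The values are per gene and do not show which exons these reads came from, so every direction below is one between the labels. An exchange of the labels was not tested. T cell markers were well expressed in both libraries (6 of 6, log2 values from 11.91 to 15.25). Under the KO label, 5 of them were lower and 1 higher, with a median log2 difference of -0.185. Of the 4 Th1 markers, Ifng (difference 1.32) and Il12rb2 (0.45) were higher and Tbx21 (-0.27) and Cxcr3 (-1.23) lower under the KO label. Log2 differences also moved with the GC content of the transcript. Their median was 0.23 for the GC-poorest of 20 equal groups of genes and -0.45 for the GC-richest group, and the value without this trend is given where it matters. Without the trend, the difference of Tbx21 changed sign (0.08), while Ifng (1.13), Il12rb2 (0.365) and Cxcr3 (-1.10) kept theirs. The median of the T cell markers was then -0.13.

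The promoters of 3 members held the letters of the GAS, and they are shown here because this site is the known link from IFNγ to the family. Of the 8 genes, which have 11 RefSeq promoter windows (GRCm38.p6, 250 bases before to 50 bases after a start site), 3 genes had the GAS letters, TTCNNNGAA, in 1 window each, while 8.3% of all 32851 windows had them. The GAS of Irf1 spanned bases 90 to 82 before the start site (chr11:53769764-53770013 is printed, plus strand). Irf8 had a pair of GAS matches, at bases 171 to 163 and 153 to 145 before the start site (chr8:120736108-120736357, plus strand). Irf2 had a GAS at bases 224 to 216 and the core of an interferon-stimulated response element (ISRE), GAAA repeated after 2 free bases, at bases 241 to 232 (chr8:46739495-46739744, plus strand). Capitals mark the GAS in all 3 sequences and also the ISRE core, the first run of capitals, in that of Irf2.
Irf1: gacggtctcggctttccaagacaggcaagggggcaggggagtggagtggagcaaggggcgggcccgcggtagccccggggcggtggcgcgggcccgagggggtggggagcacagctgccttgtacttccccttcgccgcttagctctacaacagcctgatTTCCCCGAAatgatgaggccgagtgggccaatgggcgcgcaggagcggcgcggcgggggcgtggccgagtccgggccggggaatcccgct
Irf8: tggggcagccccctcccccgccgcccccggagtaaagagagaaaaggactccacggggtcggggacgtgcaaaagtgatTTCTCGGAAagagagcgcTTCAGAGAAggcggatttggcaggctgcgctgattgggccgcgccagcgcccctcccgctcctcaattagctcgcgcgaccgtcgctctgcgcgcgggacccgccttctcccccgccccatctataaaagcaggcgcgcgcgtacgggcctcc
Irf2: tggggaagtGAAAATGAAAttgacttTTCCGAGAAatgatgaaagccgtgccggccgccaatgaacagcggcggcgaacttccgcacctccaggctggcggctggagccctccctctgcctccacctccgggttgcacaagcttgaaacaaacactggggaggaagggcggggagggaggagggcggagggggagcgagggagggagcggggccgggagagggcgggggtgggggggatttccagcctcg

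**Figure D1:**
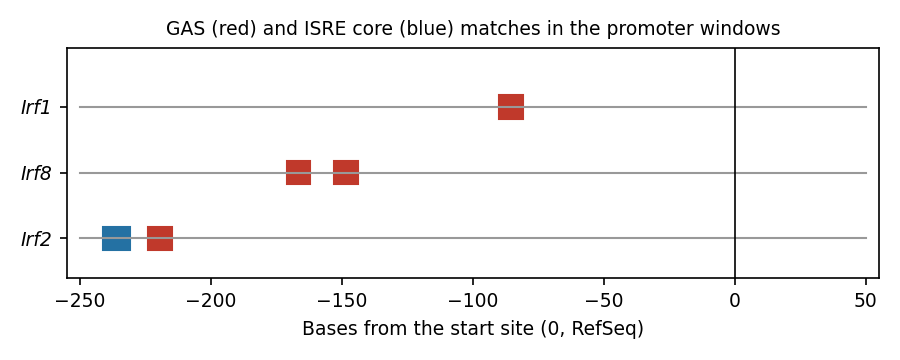
Position of the GAS and ISRE core matches in the promoter windows of Irf1, Irf8 and Irf2, with bases from the RefSeq start site on the horizontal axis. All matches lie before the start site, nearest in Irf1 at bases 90 to 82 and farthest in Irf2.

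The ISRE core was found in 1 of the 11 windows and in 3.44% of all windows, searched on both strands. No window of the 8 genes held the 1 narrow form of the kappaB motif that was searched (1.47% of all windows) or the AP-1 letters TGANTCA (7.81%). Looser forms of the kappaB motif were not searched, so these windows, those of Irf1 and Irf2 among them, may still hold such a site. The E-box CATNTG, of the kind that Twist1 binds, was found for Irf3 and Irf9, against 39.36% of all windows. A match is a description of letters in the window and does not show that a factor was bound in these cells.

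The 8 genes lie at separate loci of GRCm38, of which only Irf3 with Irf7 and Irf2 with Irf8 share a chromosome. Irf1 spans chr11:53770014-53778374, Irf2 chr8:46739732-46847458, Irf4 chr13:30749226-30766976 and Irf8 chr8:120736358-120756694, all on the plus strand. Irf3 spans chr7:44997648-45002848, Irf5 chr6:29526625-29541871 and Irf9 chr14:55603571-55610030 on the plus strand, and Irf7 chr7:141262706-141266481 on the minus strand. The values are gene totals over exons.

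All 8 genes were expressed, at levels that spread more than 10-fold. Scaled to the length of all annotated exons, Irf1, Irf4 and Irf8 stood above the other members in both libraries, and Irf5 and Irf7 stood lowest. In the library labelled WT Th1, Irf1 led with 100.5 RPKM (reads per kilobase of exon, scaled to the library total), ahead of Irf4 with 89.6 and Irf8 with 65.9. In the library labelled Chi3l1 KO Th1, Irf4 led with 118.7, ahead of Irf1 with 102.4 and Irf8 with 91.9. The level of Irf1 was thus 1.12 times that of Irf4 under the first label (95% counting interval 1.104 to 1.141), and the level of Irf4 was 1.16 times that of Irf1 under the second (1.14 to 1.178). These 3 genes together held 79.1% of all reads on the 8 genes under the WT label and 81.2% under the KO label.

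The middle of the family consisted of Irf3, Irf9 and Irf2. Under the WT label, Irf3 had 23.1 and Irf9 22.8 RPKM, and these neighbours could not be told apart within counting error (ratio 1.01, interval 0.978 to 1.05). Under the KO label, Irf9 had 27.7 and Irf3 19.6, a ratio of 1.42 (1.37 to 1.47). Irf2 had 12.9 and 13.2. Irf7 had 7.5 under the WT label and 10.1 under the KO label, and Irf5 6.7 and 8.9, so that the known myeloid and B cell member Irf5 was the lowest of the family in both libraries. All other neighbours in the order differed beyond their counting intervals, which hold no variation between mice or cultures. RPKM values divide by the library total and so add 0.168 on the log2 scale to every gene under the KO label relative to the deposited values, without changing the order within a library.

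**Figure D2:**
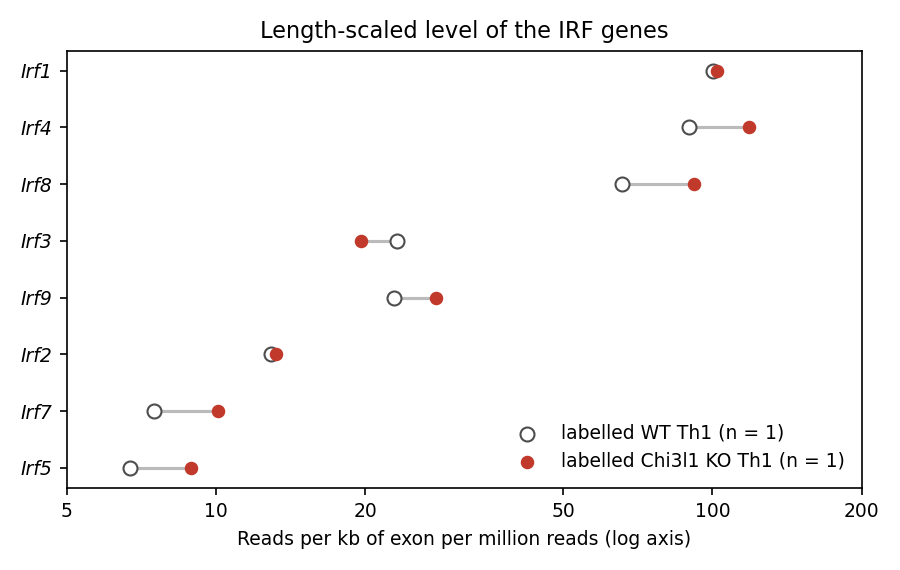
Length-scaled level of each IRF gene, in RPKM on a log axis, in the library labelled WT Th1 (open) and the library labelled Chi3l1 KO Th1 (filled), 1 sample each. Irf1, Irf4 and Irf8 lie between 65.9 and 118.7 in both libraries and the other 5 genes at 27.7 or below.

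The top 3 and the bottom 2 places were taken by the same genes in both libraries under each of 4 definitions of length, while the order inside these groups was not fixed. With the longest protein-coding transcript as the length, for example, Irf8 had 163.3 and Irf4 92.2 under the WT label. The difference between labels does not depend on gene length, and it is given next from the deposited values.

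Compared to the library labelled WT Th1, the library labelled Chi3l1 KO Th1 had more Irf8, Irf7, Irf4, Irf5 and Irf9 and less Irf3, and it had less Irf1 and Irf2 with the deposited scaling, although the sign of Irf1 changed after quantile normalization (0.011) and that of Irf2 when scaled to the total without Rn45s (0.009). All 8 differences were small. None of the 8 members reached 1.5-fold in either direction, where 4.5% of the 9093 genes with a mean log2 value of at least 8 were at least 1.5-fold higher and 6.68% at least 1.5-fold lower. At 2-fold, these shares were 0.605% and 0.858%, again with 0 of 8 members. The median log2 difference of the 8 genes was 0.17, beside -0.01 over the 9093 genes, whose middle range (between the outer quartiles) ran from -0.26 to 0.22.

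Of the members whose windows held a GAS, Irf8 was higher in the deposited values and under each of 8 alternatives, while Irf1 and Irf2 were lower in the deposited values and higher when scaled to all reads (0.026 and 0.036). Irf8, which pairs with PU.1 and is best known from myeloid and B cells, had a log2 value of 14.96 under the WT label and 15.27 under the KO label, from about 32845 and 40859 reads. Its log2 difference of 0.31 (95% exact counting interval 0.29 to 0.33) is 1.24-fold and was the largest increase in the family, and 38.4% of the 9093 genes differed by at least as much in either direction. Irf1, the activator of antigen presentation genes that also supports Il12rb1 expression in Th1 cells, had 14.74 and 14.60, a log2 difference of -0.14 (-0.17 to -0.12). Irf2, which competes with Irf1 for the same sites, had 12.67 and 12.54, a difference of -0.13 (-0.18 to -0.08). In the deposited values Irf2 stood 0.01 above Irf1 on the log2 scale, but with the GC trend removed it stood at -0.22 relative to Irf1. Irf8 stood 0.45 above Irf1 (0.41 with the GC trend removed). Differences at least as large as that of Irf1 were seen in 69.3% of the 9093 genes, and as large as that of Irf2 in 71.3%.

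Irf4, the TcR-induced member that binds with BATF and JUN proteins in T cells, had log2 values of 14.88 and 15.11, from about 31030 and 36646 reads. Its log2 difference was 0.24 (0.22 to 0.26), and 0.16 with the GC trend removed. Irf8, its nearest relative in the family, stood 0.08 above it (0.21 with the GC trend removed).

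Of the members that act behind nucleic acid sensors, Irf3 was lower and Irf5 and Irf7 were higher under the KO label. Irf3, the constitutive factor that switches on Ifnb1 after phosphorylation, had 12.41 and 12.00, the largest decrease in the family with a log2 difference of -0.41 (-0.46 to -0.35), or 0.755-fold. Irf7, which amplifies type I interferon and is itself interferon-induced, had 10.91 and 11.18, a difference of 0.27 (0.18 to 0.35). Irf5 had 10.39 and 10.62, a difference of 0.23 (0.13 to 0.34) that rested on about 1381 and 1625 reads, the fewest in the family. Irf9, the DNA-binding subunit of ISGF3, had 13.04 and 13.15, a difference of 0.11 (0.07 to 0.16). As many as 26.1% of the 9093 genes differed at least as much as Irf3, and 75.1% as much as Irf9.

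**Figure D3:**
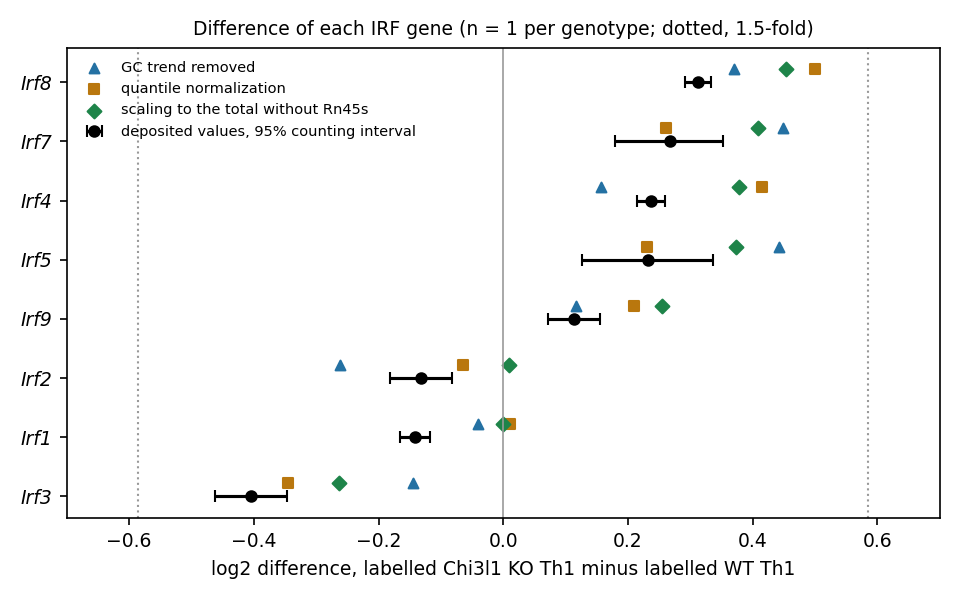
Log2 difference of each IRF gene, library labelled Chi3l1 KO Th1 minus library labelled WT Th1 (n = 1 each), from the deposited values with 95% exact counting intervals (black), and under 3 other ways of processing. Every value lies inside the dotted 1.5-fold lines, and Irf1 and Irf2 lie on either side of 0 depending on the processing.

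The transcripts of Irf3, Irf5 and Irf7 are the richest in GC of the family (56.7%, 55.7% and 55.4%), and those of Irf2 and Irf4 the poorest (46.4% and 47.6%). With the GC trend removed, the log2 differences of Irf7 and Irf5 were 0.45 and 0.44, that of Irf8 was 0.37 and that of Irf3 -0.15. Irf2 then had the largest decrease, at -0.26, and Irf1 had -0.04. The gap between members does not change when all genes of a library are scaled by a common factor. From Irf3 to Irf8 it was 0.72 on the log2 scale in the deposited values. That gap was 0.515 with the GC trend removed and 0.845 after quantile normalization. Of the 28 pairs of members, 22 had the same order of their differences in the deposited values, with the GC trend removed and after quantile normalization. The 6 pairs whose order changed were those of Irf2 with Irf1 and with Irf3, of Irf4 with Irf5 and with Irf7, and of Irf8 with Irf5 and with Irf7.

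**Figure D4:**
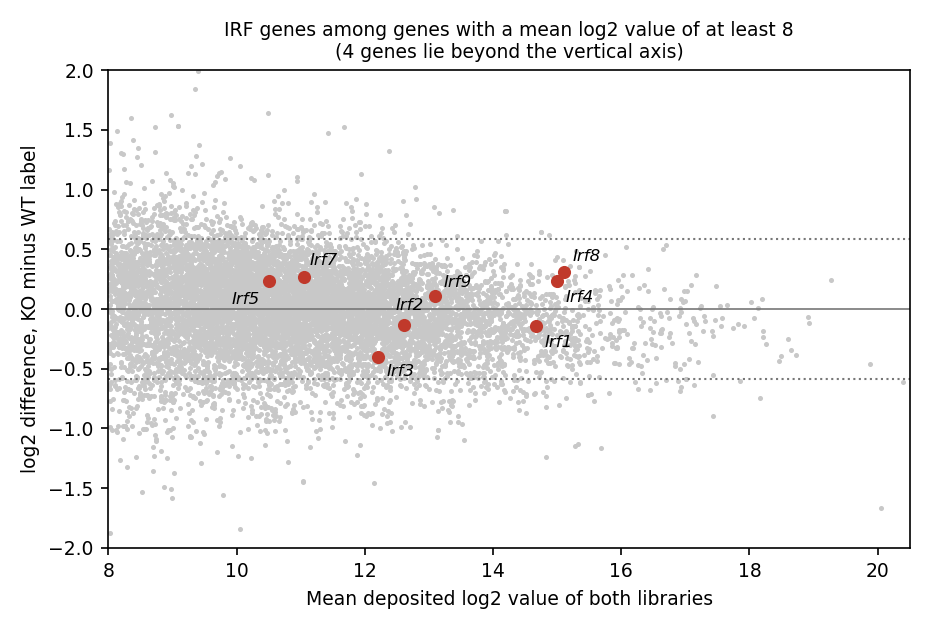
Log2 difference between the labels against the mean deposited log2 value, for genes with a mean of at least 8 (grey, 4 of them beyond the axis) and the 8 IRF genes (red). The IRF genes lie within the cloud, between -0.41 and 0.31, and inside the dotted 1.5-fold lines.

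Reads of overlapping genes may enter some of these values. The sources used here give neither the use of strand in counting nor the handling of exons shared between genes. The exons of Irf5 share 411 bases (14.1% of its exon length) with Tnpo3, which is transcribed from the other strand and had log2 values of 12.32 and 12.66, a difference of 0.34 close to that of Irf5. Irf3 shares 88 bases with Bcl2l12, which was also lower under the KO label (difference -0.34). The overlaps of Irf7 with Phrf1, 45 bases, and of Irf9 with Rnf31, 123 bases, involved genes with differences of -0.09 and -0.21, opposite in sign to those of the members. Irf1 shares 135 bases (3.4%) with Gm17334 on the other strand, which has no row of that symbol in the tables used here. The part of these overlaps in the members' values was not tested.

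Genes that induce the family were mixed. Ifng had log2 values of 11.72 and 13.04, a difference of 1.32 (1.27 to 1.38), while the receptor chain Ifngr2 had 10.19 and 9.35, a difference of -0.85 (-0.98 to -0.71). Of the 5 genes of IFNγ, its receptor chains and their kinases, 3 were higher and 2 lower under the KO label. Their median was 0.01 (-0.13 with the GC trend removed). Ifng was past 1.5-fold higher, as were 4.5% of the 9093 genes, and Ifngr2 past 1.5-fold lower, as were 6.68%. On the side of the TcR, 6 of 9 genes that lead to NF-κB and NFAT were lower, with Nfatc1 at -0.68 and Nfatc2 at -0.45, while Malt1 (0.26) and Rel (0.22) were among the 3 higher, and the median was -0.12 (-0.07 with the GC trend removed). Of the 8 TcR-induced genes that passed the level of 8, 6 were lower, among them the early growth response genes Egr3 (-0.82) and Egr1 (-0.80), and the 2 higher genes were Tnfrsf9 (0.43) and Il2ra (0.25). Their median was -0.24, while the difference of Irf4 was 0.24. With the GC trend removed, Malt1 and Rel each had 0.03 and Il2ra 0.11, beside 0.16 for Irf4.

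Of the partners of IRFs on DNA, Stat2 was higher with a log2 difference of 0.24 and Batf with 0.34, from 11.18 to 11.52. Batf3, a partner of Irf8 in dendritic cells, had 7.97 and 8.42 (difference 0.45, interval 0.21 to 0.69). With the GC trend removed, Batf had 0.60 and Batf3 0.90. The largest difference was that of Spib, an ETS factor of B cells and plasmacytoid dendritic cells that pairs with Irf4 and Irf8, with log2 values of 6.97 and 8.65 and a difference of 1.69 (1.41 to 1.99). Spi1, which encodes PU.1, had about 66 and 125 reads and a difference of 0.91 (0.48 to 1.37). The AP-1 genes Junb and Jund were both lower, each with a difference of -0.70. They were the 2 partners past 1.5-fold in that direction, as were 6.68% of the 9093 genes. With the GC trend removed, neither was past 1.5-fold (both -0.25). Of the 9 partners, 7 were higher and 2 lower, and the 6 that passed the level of 8 had a median of 0.16 (0.30 with the GC trend removed). Proteins that bind or degrade IRFs went the other way, with 5 of 6 lower and a median of -0.35, led by Irf2bpl (-0.55) and Irf2bp2 (-0.52). With the GC trend removed, their median was -0.07. The sensors, adaptors and kinases upstream of Irf3, Irf5 and Irf7 had 15 genes past the level of 8, 7 higher and 8 lower. Their median was -0.01, and the largest differences were in the kinase genes Chuk (0.57) and Tbk1 (0.55). With the GC trend removed, the median was -0.106, Chuk had 0.35 and Tbk1 0.43. The largest difference among those with a GC value was then that of the adaptor gene Myd88 (0.51).

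Spib, Spi1, Irf5, Irf8 and Irf4 are also expressed by B cells, and the B cell markers moved with them. All 6 markers were higher under the KO label, from 0.27 for Cd79b to 1.998 for Blk on the log2 scale, and Ebf1 had about 167 and 358 reads. None of the 6 was at 0, and their summed normalized count was 848.6 under the WT label and 1475.2 under the KO label, whereas that of the 8 IRF genes was 112890.6 and 122787.3. The 7 dendritic cell markers summed to 73.6 and 121.9 and went both ways. Flt3 had about 18 and 68 reads, Zbtb46 14 and 48 and Xcr1 0 and 5, whereas Itgax had 44 and 5, and Clec9a, Siglech and Cd209a were at 0 in both libraries. The 7 monocyte and macrophage markers summed to 537.3 and 466.7, of which 2 were higher, with Csf1r at about 97 and 174 reads, and 4 lower, with Cd68 at 402 and 300, Lyz2 at 34 and 2 and Cd14 at 12 and 0. Adgre1 was at 0 in both. CD8 and NK cell markers summed to 828.5 and 821.3, with Cd8a higher (0.60) and Cd8b1 lower (-0.47). The part of other cells in the IRF values was not tested, and in RNA from a whole culture more cells of a type cannot be told apart from more RNA per cell.

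**Figure D5:**
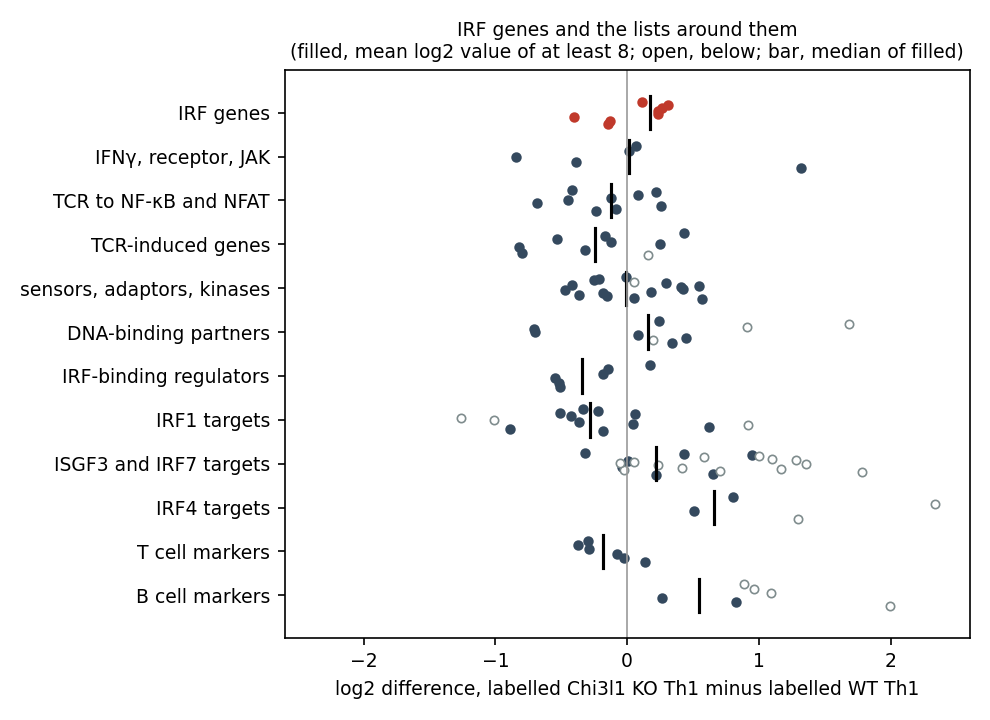
Log2 difference between the labels for the IRF genes (red) and for the genes of each list, with filled points for a mean log2 value of at least 8, open points for lower values and a bar at the median of the filled points. The IRF genes spread from -0.41 to 0.31, Ifng stands at 1.32 in its list, and all B cell markers lie above 0.

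Known targets of the members were compared last. Of the 13 IFNγ-induced targets of Irf1, 10 passed the level of 8, of which 7 were lower under the KO label, with a median of -0.28 (-0.08 with the GC trend removed), beside -0.14 for Irf1 itself. Of these 10, Ciita, the master regulator of MHC class II genes, was past 1.5-fold lower (-0.89), as were 6.68% of the 9093 genes. The chemokine gene Cxcl10 was past 1.5-fold higher (0.62), as were 4.5%, but not with the GC trend removed (0.49). Below the level of 8, Nos2, inducible nitric oxide synthase, had a difference of -1.26 from about 276 and 115 reads. The chemokine gene Cxcl9 had one of 0.92 from about 129 and 245 reads. Of the 20 ISRE-bearing targets of ISGF3 and Irf7, 16 were higher and 4 lower, but only 7 passed the level of 8, of which 5 were higher, with a median of 0.22 (0.35 with the GC trend removed). Usp18 (0.95) and Eif2ak2 (0.66) were past 1.5-fold higher, as were 4.5% of the 9093 genes, and Eif2ak2 was not with the GC trend removed (0.46). Over all levels 5 of the 20 were at least 2-fold higher and 0 at least 2-fold lower, where 4.69% and 5.81% of all 24421 genes were. These 5 were Ifi44, Mx2, Oasl1, Ifit3 and Oasl2, all with few reads, such as about 27 and 71 for Mx2 (difference 1.36, interval 0.73 to 2.09) and about 41 and 101 for Oasl1 (1.28, 0.76 to 1.86). Of the 6 genes known as Irf4 targets in T cells, Prdm1, which encodes Blimp-1, had log2 values of 8.49 and 9.30 (difference 0.80, interval 0.62 to 0.99) and Il21 had 9.35 and 9.86 (0.51, 0.37 to 0.65). With the GC trend removed, Prdm1 had 0.685 and Il21 0.28. Il9 and Il17a were at 0 in both libraries, where 0 reads allow up to 3 reads per library.

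The type I interferon genes that Irf3 and Irf7 control were at or below 3 reads. Of the 10 interferon genes listed, 9 were at 0 in both libraries, and Ifna4 had 3 reads under the WT label and 0 under the KO label. Both chains of their receptor were expressed, with differences of 0.19 for Ifnar1 and -0.21 for Ifnar2. Because only 2 samples were available, genes with a pattern like that of a member were not sought.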

How the data were processed

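Libraries were prepared by the authors from polyadenylated RNA with a SENSE mRNA-Seq kit and sequenced from both ends. Mapping was by TopHat, uniquely and multiply aligned reads both entered the counts, and a global normalization followed. The submitters' processing notes name mm10. The annotation, the strand setting and the version of TopHat are not given in the sources used here. The deposited unit, log2 of a normalized count with 1 added, was inferred from the values. With the log undone, 100.0% of the values between 5 and 40 lay within 0.15 of a whole multiple of a step, 0.969 for the WT and 0.967 for the KO library, by which read counts were rebuilt. The value of 3 reads is 1.966 and 1.964.

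Differences were KO minus WT on the deposited log2 scale. Exact (Clopper-Pearson) 95% intervals from the rebuilt reads cover counting error only. Genes with a mean log2 value of at least 8 served as background. Their median difference was -0.01, and the share of all genes higher or lower at any size was not counted. The members and gene lists were chosen with earlier results of these data known. Named genes were the members, Ifng, Stat2, Batf, Batf3, the pair with the largest difference in each list if it reached a log2 value of 6 in either library, list genes that differed 2-fold or more and reached 8 in both libraries, Chil1 and Actb. Overlapping, marker and undetected genes, Junb, Jund, Malt1, Rel, Tnfrsf9, Il2ra, Myd88, Ciita, Cxcl10, Usp18, Eif2ak2, Ifi44, Ifit3 and Oasl2 were named outside this rule, after their values were seen. Lengths, GC content and overlaps came from GENCODE M21 (GRCm38), which matched 95.8% of the symbols, and promoters from RefSeq (GRCm38.p6). Lengths count all exons of a gene. A further family member and some genes of the lists are not reported here and entered no list count. No protein comparison was made. Scripts were tested on simulated data. Software was scipy 1.17.1, numpy 2.4.6, matplotlib 3.10.9 and pandas 2.3.3 under Python 3.11.15. Other pseudocounts, scalings, a GC correction, level filters and lengths were tried.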

Additional observations from a re-analysis of the deposited data

How the results depend on the processing

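With 1 sample per genotype, no alternative could test a difference. The median log2 difference of the 8 IRF genes was 0.17 with pseudocounts of 0.1 and 5, 0.18 with median-ratio scaling and 0.14 with the GC trend removed. It was 0.22 after quantile normalization, 0.29 when scaled to Actb, 0.31 when scaled to the total without the ribosomal RNA Rn45s and 0.34 when scaled to the total of all rebuilt reads, an alternative chosen after seeing the data. The last 3 scalings moved the median of the 9093 background genes to 0.106, 0.131 and 0.159, so that this change is common to all genes. No IRF gene reached 1.5-fold under any of the 8 alternatives. Irf3 stayed lower, and Irf4, Irf5, Irf7, Irf8 and Irf9 stayed higher, under all 8. Irf1 changed sign after quantile normalization (0.011) and when scaled to all reads (0.026), and Irf2 when scaled to the total without Rn45s (0.009) and to all reads (0.036). The list of 15 sensors, adaptors and kinases changed the sign of its median with median-ratio scaling (0.002), as did the pair of receptor chains for type I interferon (0.004). The median of the 5 IFNγ genes changed sign with the GC trend removed (-0.131). No other list median changed sign under these 2 settings, the only ones computed for the lists. The scalings to Actb and to totals raise every gene alike and would turn a negative median smaller in size than their shift. The scaling to all reads adds 0.168, more than the size of the median of the genes from the TcR to NF-κB and NFAT (-0.119). The share of background genes past 2-fold depends on the level required, and was 4.69% higher and 5.81% lower over all genes.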
